A study of Mus musculus with 6 samples.

Results

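The expression of 10 genes of the Hippo pathway, among 24063 gene symbols measured, was followed in lung endothelial cells (ECs) during compensatory lung growth. The genes were chosen by name, as parts of a known pathway, with earlier results of these data known. They are Yap1 and Wwtr1 (the gene of TAZ), which encode the coactivators, Tead1, Tead2, Tead3 and Tead4, which encode their DNA-binding partners, Lats1 and Lats2, which encode the kinases that restrain them, and Amotl2 and Ankrd1, which are commonly read as their target genes. All 10 were found in the files, and all 10 were among the 16598 genes that passed the filter on low counts.

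RNA was sequenced from ECs that had been pulled from the lungs of male C57BL6 mice with magnetic beads carrying anti-CD31 antibody. The 3 sham libraries come from sham-operated mice. For the 3 PNX libraries, mice had undergone unilateral pneumonectomy (PNX) 7 days earlier, which takes out the left lung and makes the right lung grow. RNA of 2 mice is pooled in each library, no group carries a transgene or receives a drug, and the stated age differs between the labels (8 weeks) and the methods (12 to 15 weeks). Cells enriched on beads are a mixture, so a lower level in such RNA may reflect fewer cells of a type or less RNA per cell, which cannot be told apart.

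Total counts were 29526989 to 81282871 per library and were lowest in replicate 3 of each group. Replicates 1 and 2 of both groups are marked in the labels as re-used from an earlier deposit, whereas replicate 3 is not. Within a group, replicates 1 and 2 differed only slightly beyond counting error (chi-square per degree of freedom of 1.57 to 1.75, against 67.9 to 86.4 for pairs with replicate 3). They were therefore added together and taken as a single sample, so that n = 2 in each group. Whether the pools come from separate cohorts is not given, so the p-values measure only the spread between these samples. All 8 endothelial markers examined were present in every library, with a summed level of 6937 to 8335 CPM (counts scaled to a common library size) in sham and 6454 to 7130 in PNX, but markers of other lung cells were present too. Summed over the list, 8 mesenchymal markers reached 1254 to 1492 CPM in the sham libraries and 3581 to 5084 in PNX, 5 alveolar type 2 markers 4882 to 5327 and 1869 to 3103, and 8 cell division genes 69.2 to 123.4 and 594.5 to 911.8. None of the markers was at 0 in any library.

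In the Hippo pathway a chain of kinases ends in LATS1 and LATS2, which phosphorylate YAP and TAZ. Phosphorylated YAP and TAZ are held in the cytoplasm or degraded. When the chain is inactive, both proteins enter the nucleus, where they bind TEAD factors and switch on genes of growth, adhesion and matrix. In ECs the pathway responds to stretch, flow and cell density, and YAP and TAZ take part in vessel sprouting. Much of this control acts on protein, which RNA counts do not measure.

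TEAD factors bind the short element CATTCC, read as GGAATG on the other strand. Of the members, 8 have a promoter in RefSeq (build GRCm38.p6), and 5 of the 8 hold the element at least once in the 250 bases before the start (Yap1, Wwtr1, Tead3, Amotl2 and Ankrd1), whereas 12.64% of 27025 promoters of all genes do. Of the other Hippo genes described below 9 of 22 with a promoter entry hold it, and of the other target genes 3 of 11. Both strands were searched and no other motif was. Tead1 and Tead4 have no entry in the table. The windows below show the element in the 2 target genes, in both coactivator genes and in Tead3. Each is printed 5′ to 3′ along the strand of the gene, with the element in capitals.
Amotl2, chr9:102717727-102717756, plus strand: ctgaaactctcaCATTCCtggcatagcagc
Ankrd1, chr19:36120037-36120066, minus strand: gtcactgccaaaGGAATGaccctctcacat
Ankrd1, chr19:36119950-36119979, minus strand: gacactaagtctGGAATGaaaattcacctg
Yap1, chr9:8004720-8004749, minus strand: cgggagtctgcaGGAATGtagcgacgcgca
Wwtr1, chr3:57576029-57576058, minus strand: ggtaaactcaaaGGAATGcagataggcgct
Tead3, chr17:28350970-28350999, minus strand: gacgacgagcgaGGAATGgggtgcgcggga
The element begins 65 bases before the start in Amotl2, 210 and 123 in Ankrd1, 141 in Yap1, 136 in Wwtr1 and 182 in Tead3. The Amotl2 and Ankrd1 windows overlap an exon of a longer transcript in GENCODE vM21, the other 3 genes' windows do not. A match of letters is no measured binding site.

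Levels in the RNA of the enriched cells, a mixture, were compared in TPM (a level per length of transcript, scaled by library). For each gene the transcript with the highest total was taken. In sham lungs the highest level was that of Amotl2, which encodes a scaffold of cell junctions that holds YAP and TAZ (84.1 ± 11.2 TPM, SD, n = 2), followed by Wwtr1 (68.2 ± 16.3), Lats2 (63.3 ± 12.01) and Yap1 (48.2 ± 11.5). This order held within each sham library, although the ranges of neighbours overlapped, replicate 3 being the lowest in all 4 genes. Tead2 (18.7 ± 8.3), Lats1 (15.9 ± 0.38), Tead4 (15.1 ± 4.9) and Tead1 (12.8 ± 2.5) came next, with ranges that overlapped from each gene to the next, then Tead3 (8.03 ± 0.18) and, lowest, Ankrd1 (3.74 ± 2.03). After PNX the highest was Wwtr1 (77.2 ± 13.1 TPM), followed within every PNX library by Lats2 (52.3 ± 6.4), Amotl2 (50.6 ± 5.6) and Yap1 (40.1 ± 8.3). The range of Amotl2 over the PNX libraries overlapped those of Lats2 and Yap1. Ranks among the upper genes depended on how transcripts were combined, and with TPM summed over transcripts Amotl2 was the 4th gene in sham and the 5th in PNX.

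**Figure D1:**
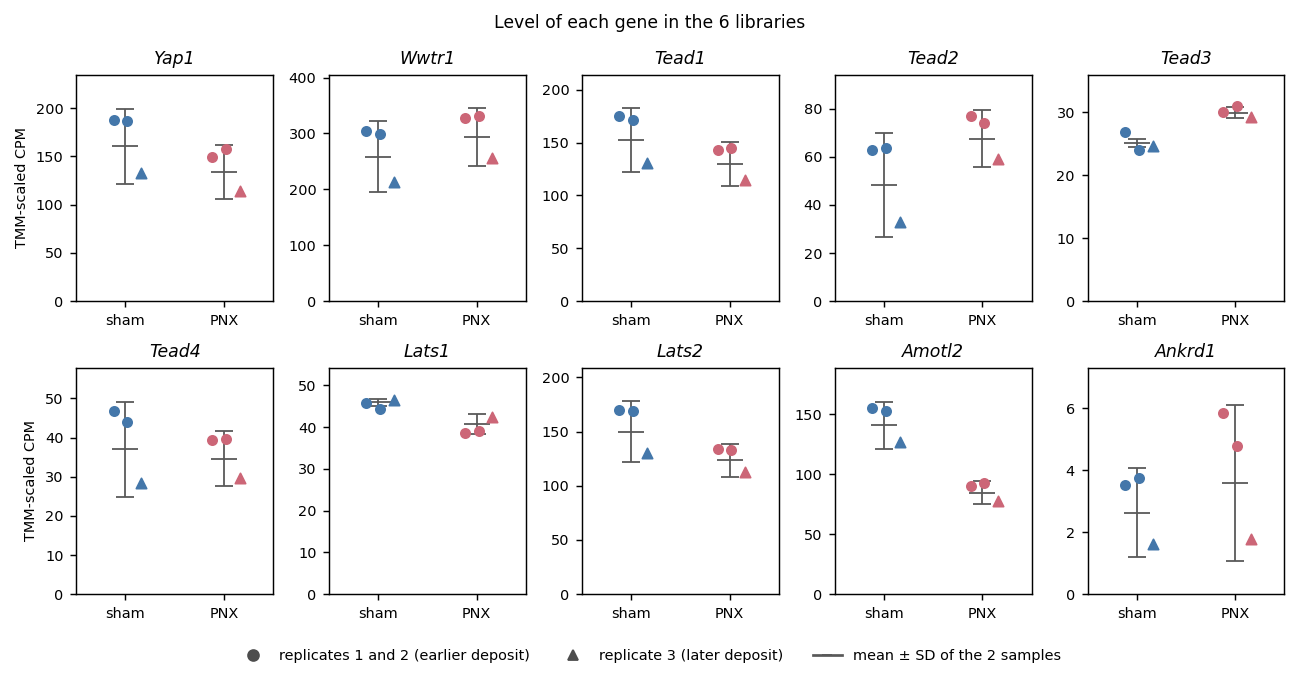
Level of each of the 10 genes (y axis, TMM-scaled CPM from 0) in the sham (blue) and PNX (red) libraries, with circles for replicates 1 and 2, triangles for replicate 3, and the mean ± SD of the 2 samples per group as grey bars. Replicate 3 lies below replicates 1 and 2 of its group for most genes, and the groups do not overlap in Amotl2, Lats1 and Tead3.

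To compare PNX with sham, counts were tested with edgeR's quasi-likelihood test and Benjamini-Hochberg adjustment. Library sizes were scaled by TMM (a correction for library composition). With 4 samples and no block, 0 genes (0% of 16598) passed an adjusted p under 0.01 with an absolute log2 fold change above 1, none of the 10 among them, while 2076 genes and 1 of the 10 had an unadjusted p under 0.05. DESeq2 on the same samples called 587 of 17153 genes (3.42%), and again none of the 10. Since the deposit pairs the samples, the fit was repeated with a replicate block, a term for the deposit, in which 849 genes (5.12%) passed and none of the 10 did. That fit has 1 residual degree of freedom, so the variance edgeR used for each gene rests in large part on the other genes. At an adjusted p under 0.05 with no minimum fold change, the blocked fit called 11.5% of genes higher and 10.1% lower after PNX, and of the 10 genes it called Tead2 higher and Amotl2 lower. This share of the members is close to that of all genes. The median log2 fold change of the 10 genes was -0.13 with the block, against -0.01 over all genes tested.

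Of the 10 genes, 1 had all 3 PNX libraries above all 3 sham libraries (18.6% of genes tested) and 2 had them below (18.0%), while 7 overlapped. Within each deposit, 4 genes were higher and 5 lower after PNX in both deposits, and Tead4 was the exception. In both groups, 9 of the 10 genes were lower in the later deposit than in the earlier one, Lats1 being the other. The share of all genes tested was not counted, neither for this nor for the same sign in both deposits.

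The target gene Amotl2 had the largest change of the 10 with the smallest p-value. Its level was 155, 152.5 and 126.7 CPM in the sham libraries, in the order of replicates 1, 2 and 3, and 90.2, 92.8 and 77.7 in the PNX libraries. Every PNX library lay below every sham library. With the replicate block Amotl2 fell by 0.73 on the log2 scale (SE 0.08, 0.603-fold with a 95% interval of 0.53 to 0.687, edgeR adjusted p = 0.00106). Without the block the log2 fold change was also -0.73 (95% interval -1.18 to -0.28), but its edgeR adjusted p was 0.198. On the same 4 samples without the block DESeq2 gave an adjusted p of 0.0439, and edgeR on the 6 libraries taken separately gave 0.0118. The decrease was alike in the earlier deposit (log2 -0.75) and in the later one (-0.71). It was called at an adjusted p under 0.05 in all 10 blocked fits tried, including those without replicate 1 or 2 of a group. Without the block, leaving out PNX replicate 3 gave the weakest value (-0.62). Amotl2 (chromosome 9, 102716672 to 102733418 in GRCm38, plus strand) overlaps no other annotated gene and has 1 transcript in the files.

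The other target gene, Ankrd1, encodes a repeat protein best known from heart and muscle, where it is induced by load. Ankrd1 (chromosome 19, 36111961 to 36120099) was the least expressed of the 10, with 282, 266 and 55 counts in the sham libraries and 439, 316 and 53 in the PNX libraries. Its level was 3.54, 3.75 and 1.62 CPM in the sham libraries and 5.85, 4.78 and 1.79 in PNX. Replicate 3 was the lowest of each group, and the groups overlapped. The log2 fold change was 0.41 (SE 0.19, 95% interval -0.04 to 0.87, edgeR adjusted p = 0.175) with the replicate block and 0.45 (SE 0.65) without it. Its log2 ratio was 0.56 (95% counting interval 0.40 to 0.72) in the earlier deposit and 0.15 (-0.42 to 0.72) in the later one, where its counts were too few to tell such a ratio from none. Amotl2 and Ankrd1 thus had fitted changes of unlike sign.

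The coactivator gene Yap1 was at 188, 187 and 132.5 CPM in the sham libraries and at 149.5, 157 and 114 in PNX. It lies on chromosome 9 (7931999 to 8004596, minus strand). In each deposit the PNX level was the lower, although the groups overlapped since sham replicate 3 lay below PNX replicates 1 and 2. The log2 fold change was -0.26 (SE 0.08, 95% interval -0.45 to -0.06) with the replicate block, at an edgeR adjusted p of 0.064, and -0.26 (SE 0.25, adjusted p = 0.761) without it. With the block, Yap1 was under 0.05 in 3 of the other 9 fits, namely the 6 libraries taken separately, the single transcript with the highest total, and the fit without sham replicate 2.

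Wwtr1, the paralogue on chromosome 3 (57455649 to 57575910, minus strand), was at 305, 299 and 214 CPM in the sham libraries and at 327, 331 and 257 in PNX. Here the PNX level was the higher in each deposit, and the groups again overlapped, since PNX replicate 3 lay below sham replicates 1 and 2. The log2 fold change was 0.19 (SE 0.09, 95% interval -0.02 to 0.41, edgeR adjusted p = 0.182) with the replicate block and 0.18 (SE 0.24, adjusted p = 0.834) without it. Neither change in Wwtr1 passed the test on its own. The transcripts of Yap1 and of Wwtr1 differ by at most 0.08% in their counts, so shared reads were counted on each.

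Within a library, the levels of both coactivators can be set against each other, which takes out any factor that they share. The ratio of Wwtr1 to Yap1, by TPM of the top transcript, was 1.424, 1.407 and 1.415 in sham replicates 1, 2 and 3. In PNX replicates 1, 2 and 3 it was 1.921, 1.844 and 1.983. All PNX ratios lay above all sham ratios, and the later deposit did not stand apart from the earlier one in sham although the levels of both genes were much lower there. The mean ratio was 1.415 in sham and 1.933 in PNX, 1.33-fold higher in the earlier deposit and 1.401-fold in the later one. With 2 samples per group an exact permutation test, two-sided, cannot give a p below 0.333, and the difference is given as a description. The ratio was chosen after the values were seen. Of the 45 pairs of the 10 genes, 22 had ratios that separated the groups, 8 of them with Amotl2, and the Wwtr1 to Yap1 ratio had the 10th widest gap. How often ratios of other gene pairs separate the groups was not counted, so no trait particular to these genes can be read from it. TPM summed over transcripts gave 1.419 and 1.938.

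**Figure D2:**
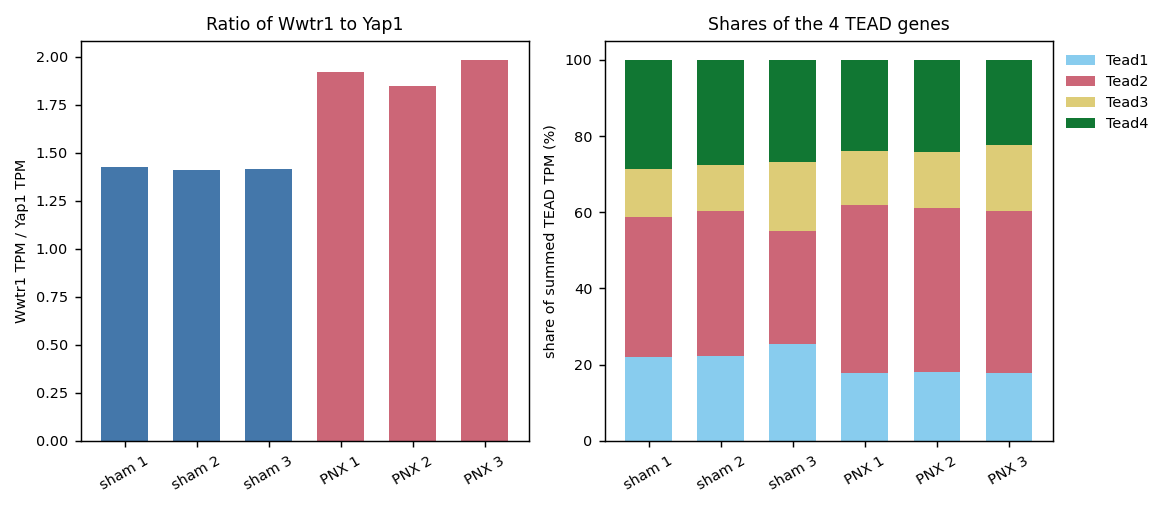
Left, ratio of Wwtr1 TPM to Yap1 TPM (y axis from 0) in each sham (blue) and PNX (red) library, which is 1.407 to 1.424 in sham and 1.844 to 1.983 in PNX. Right, share of each TEAD gene in the summed TEAD TPM of the library (percent), in which the Tead2 share is 29.58 to 38.19% in sham and 42.59 to 44.19% in PNX.

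The 4 TEAD genes encode factors with closely related DNA-binding domains. Tead2 was at 62.9, 63.6 and 32.9 CPM in the sham libraries and at 76.8, 74.2 and 59.2 in PNX. Sham replicate 3 lay far below the other 5 libraries, and PNX replicate 3 lay just below sham replicates 1 and 2. With the replicate block Tead2 rose by a log2 fold change of 0.54 (SE 0.14, 1.45-fold with a 95% interval of 1.16 to 1.82, edgeR adjusted p = 0.031). Without the block the value was 0.49 (95% interval -0.42 to 1.39, adjusted p = 0.668). The size rested on the later deposit, with a log2 ratio of 0.26 (95% counting interval 0.19 to 0.33) in the earlier and 0.85 (0.66 to 1.04) in the later. Without sham replicate 3 and without the block the log2 fold change of Tead2 was 0.11, and with the block but without PNX replicate 1 its adjusted p was 0.068. On chromosome 7 (45215753 to 45233644, plus strand) Tead2 overlaps Cd37, a leukocyte gene of the opposite strand, by 13 of 4788 exonic bases, and whether strand was used in counting is not stated. Cd37 was at 55.8, 55.4 and 98.5 CPM in the sham libraries and 49.7, 48.6 and 83.2 in PNX. Whether reads of Cd37 entered the count of Tead2 was not tested. Cd37 was looked up after the values of Tead2 were seen.

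Tead1 (chromosome 7, 112679318 to 112906807) was at 175, 171 and 131 CPM in the sham libraries and 143, 145 and 115 in PNX, with a log2 fold change of -0.23 (95% interval -0.42 to -0.04, edgeR adjusted p = 0.089) with the replicate block. Tead3 (chromosome 17, 28331671 to 28350817), which overlaps no other gene, was at 26.8, 24.0 and 24.6 CPM in the sham libraries and 29.97, 30.9 and 29.3 in PNX. It was the only one of the 10 in which all PNX libraries exceeded all sham libraries, and it had, with Lats1, the smallest differences between deposits. Its log2 fold change was 0.25 with and without the block (95% interval 0.05 to 0.46 and -0.09 to 0.60), with adjusted p = 0.079 and 0.538. Tead4 (chromosome 6, 128224288 to 128300823) was at 46.7, 44.0 and 28.4 CPM in the sham libraries and 39.4, 39.6 and 29.6 in PNX. It was lower after PNX in the earlier deposit (log2 -0.20, 95% counting interval -0.27 to -0.13), while in the later deposit the interval included 0 (0.06, -0.13 to 0.25), and its blocked log2 fold change was -0.08 (edgeR adjusted p = 0.609). Thus the fitted changes of the TEAD genes were of unlike sign, and with the block only that of Tead2 had an edgeR adjusted p under 0.05.

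As shares of the summed TEAD level per length, Tead2 held 36.6, 38.2 and 29.6% in sham and 44.2, 43.0 and 42.6% in PNX. Tead1 held 22.01, 22.2 and 25.4% in sham and 17.8, 18.1 and 17.8% in PNX, and Tead4 28.5, 27.7 and 26.8% and 23.8, 24.1 and 22.3%. For Tead1, Tead2 and Tead4 the groups did not overlap, whereas for Tead3 they did (11.9 to 18.2% and 14.2 to 17.4%). In CPM it was the reverse, with groups that overlapped in Tead1, Tead2 and Tead4 and not in Tead3. How often such shares separate the groups in other gene families was not counted. The summed level itself overlapped between groups, at 43.4 to 66.8 TPM in sham and 54.3 to 67.3 in PNX. These shares were computed after the values were seen, depend on one another because they add up to a whole, and cannot reach a permutation p under 0.333.

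The kinase gene Lats2 was at 170, 169 and 130 CPM in the sham libraries and 134, 133 and 112 in PNX. Its PNX level was the lower in each deposit, and sham replicate 3 lay below PNX replicates 1 and 2. The log2 fold change was -0.28 (SE 0.08, 95% interval -0.47 to -0.08, edgeR adjusted p = 0.056) with the replicate block and -0.28 (SE 0.19, adjusted p = 0.652) without it. Lats2 (chromosome 14, 57689662 to 57758388) overlaps the protein-coding gene Gm49361 of the same strand, so its counts are uncertain to the extent that reads are shared. The files hold 2 transcripts of Lats2, and the count of NM_153382 was 13.4, 14.5 and 14.96% of that of NM_015771 in sham and 13.2, 13.0 and 14.04% in PNX, ranges that overlap.

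Lats1 (chromosome 10, 7681214 to 7716460) was at 45.8, 44.4 and 46.4 CPM in the sham libraries and 38.6, 39.0 and 42.3 in PNX. All PNX libraries lay below all sham libraries. With a log2 fold change of -0.18 (SE 0.08, 95% interval -0.37 to 0.02, edgeR adjusted p = 0.178) with the replicate block and -0.17 (SE 0.13, adjusted p = 0.681) without it, Lats1 did not pass the test. The ratio of Lats2 to Lats1 per length was 4.54, 4.63 and 3.38 in sham and 4.26, 4.20 and 3.24 in PNX, which overlap between the groups. Within a deposit the ratio was 0.923-fold in the earlier and 0.957-fold in the later, PNX over sham.

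**Figure D3:**
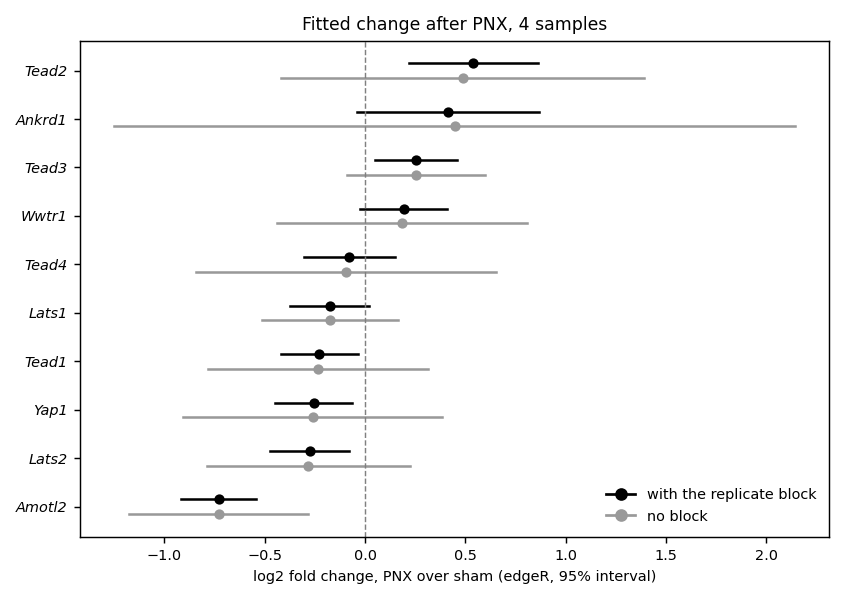
Fitted log2 fold change of each gene, PNX over sham (x axis), with its 95% interval, from edgeR on 4 samples with the replicate block (black) and without it (grey). Values run from -0.73 in Amotl2 to 0.54 in Tead2. The interval includes 0 for 4 genes with the block and for 9 without it. An interval that excludes 0 goes with an unadjusted edgeR p under 0.05. Among all 16598 genes tested, 5909 had such a p with the block and 2076 without it.

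How far these genes moved together with others was described by Pearson's r over the 6 libraries among 9862 genes of at least 10 CPM. The genes most like Yap1 were Ints8, Mterf3, Irf2bpl, Hnrnph3 and Pard6g (r 0.9987 to 0.9995), and those most like Wwtr1 were Pkig, Rhoa, Peg3, Rps4l and Cenpb (0.9978 to 0.9988). Rhoa encodes a small GTPase of the actin cytoskeleton. High values were common, since 763 genes exceeded 0.95 with Yap1 and 397 with Wwtr1, and the libraries share the difference between deposits.

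Further genes of the pathway were read from a list of 26 upstream regulators and TEAD cofactors, of which 24 passed the filter. Vgll1 was at 0 in all libraries and Vgll2 in all but 1. With the replicate block 6 were higher and 18 lower after PNX, with a median log2 fold change of -0.14 against -0.01 for all genes. At an adjusted p under 0.05, 3 were lower (Wwc1, Stk4 and Fat4) and none higher in edgeR, beside 10.1% and 11.5% of all genes. An unadjusted p under 0.05 was found in 8 of the 24 and in 5909 of the 16598 genes tested. Without the block none of the 24 had an adjusted or unadjusted p under 0.05. In 7 genes all PNX libraries lay below all sham libraries (18.0% of all genes) and in 1, Map4k4, above (18.6%).

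Wwc1 encodes KIBRA, a scaffold that promotes LATS activation. It was at 49.1, 49.9 and 32.3 CPM in the sham libraries and 27.3, 28.8 and 14.5 in PNX, so each PNX library lay below each sham library. Wwc1 fell by 0.97 on the log2 scale with the replicate block (SE 0.11, 0.51-fold with a 95% interval of 0.429 to 0.607, edgeR adjusted p = 0.00111), with an adjusted p of 0.433 without it. Stk4, the gene of the upstream kinase MST1, was at 168, 165 and 168 CPM in the sham libraries and 136, 137 and 135 in PNX (blocked log2 fold change -0.30, edgeR adjusted p = 0.037), with hardly any difference between deposits. Fat4, an atypical cadherin named here after its values were seen, was at 34.8, 34.3 and 37.9 CPM in the sham libraries and 26.2, 28.3 and 31.8 in PNX (-0.30, adjusted p = 0.045). Its ligand Dchs1 was at 30.2, 31.9 and 34.4 CPM in the sham libraries and 35.0, 32.4 and 50.7 in PNX, which gave 0.33 (adjusted p = 0.082).

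Map4k4 encodes a kinase that can phosphorylate LATS in parallel to MST1. It was at 643, 646 and 644 CPM in the sham libraries and 759, 748 and 826 in PNX, groups that did not overlap, with a blocked log2 fold change of 0.29 (edgeR adjusted p = 0.091). Frmd6, a membrane adaptor of the pathway, was at 86.6, 84.1 and 62.7 CPM in the sham libraries and 64.8, 62.1 and 56.0 in PNX (-0.30, adjusted p = 0.061). Amot, a relative of Amotl2, was at 18.0, 17.4 and 12.6 CPM in the sham libraries and 15.8, 15.6 and 16.7 in PNX (0.09, adjusted p = 0.700), with log2 ratios of -0.12 in the earlier deposit and 0.32 in the later.

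Whether other target genes of YAP and TAZ moved was read from a list of 17, all of which passed the filter. With the replicate block 6 were higher and 11 lower, with a median log2 fold change of -0.06. At an adjusted p under 0.05, 1 was higher (Tgfb2) and 3 were lower (Igfbp3, Crim1 and Cyr61), and 1 of them (Igfbp3) passed the stricter thresholds. Over all genes the shares were 11.5% higher, 10.1% lower and, at the stricter thresholds, 5.12%. The counts of the list are too small to read a difference from these shares. Without the block none had an adjusted p under 0.05 and 2 an unadjusted p under 0.05.

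Cyr61 (Ccn1) and Ctgf (Ccn2) encode secreted matrix proteins and are the targets most often measured. Cyr61 was at 394, 394.5 and 304.5 CPM in the sham libraries and 337, 339 and 196 in PNX. Cyr61 was lower after PNX in each deposit and had a blocked log2 fold change of -0.43 (SE 0.12, edgeR adjusted p = 0.042), with -0.39 (SE 0.31, adjusted p = 0.709) without the block. Ctgf was at 158, 159 and 88.4 CPM in the sham libraries and 151, 155 and 55.9 in PNX. It hardly differed in the earlier deposit (log2 -0.05, 95% counting interval -0.08 to -0.02) and was lower in the later one (-0.66, -0.75 to -0.57). The blocked value of Ctgf was -0.34 (SE 0.14, adjusted p = 0.124).

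Igfbp3, which encodes a binding protein of insulin-like growth factors, was at 82.9, 83.1 and 61.9 CPM in the sham libraries and 25.1, 24.6 and 28.9 in PNX. Igfbp3 fell by 1.43 on the log2 scale with the replicate block (SE 0.15, 0.371-fold with a 95% interval of 0.291 to 0.472, edgeR adjusted p = 0.000835), and without the block the adjusted p was 0.093. Crim1, which encodes a membrane protein that binds growth factors, was at 169, 168 and 159 CPM in the sham libraries and 122, 124 and 111 in PNX (-0.49, adjusted p = 0.00661). Tgfb2, the gene of a transforming growth factor, was at 13.2, 12.7 and 17.2 CPM in the sham libraries and 17.8, 20.2 and 23.5 in PNX (0.50, adjusted p = 0.011). In these 3 genes, and in F3 described next, the groups did not overlap. Of the 17 target genes, 1 had all PNX libraries above all sham libraries (18.6% of genes tested) and 3 had them below (18.0%).

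F3, the gene of tissue factor, was at 16.5, 16.2 and 15.2 CPM in the sham libraries and 14.2, 14.8 and 9.43 in PNX (-0.41, edgeR adjusted p = 0.080 with the replicate block). Gadd45a, a stress response gene, was at 11.1, 10.7 and 13.9 CPM in the sham libraries and 13.7, 13.3 and 15.6 in PNX (0.24, adjusted p = 0.158). Fjx1, which encodes a secreted protein, was at 1.20, 1.42 and 1.03 CPM in the sham libraries and 2.90, 2.83 and 1.01 in PNX (0.74, adjusted p = 0.133), a difference seen in the earlier deposit and not in the later. These 3 genes did not pass the test.

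**Figure D4:**
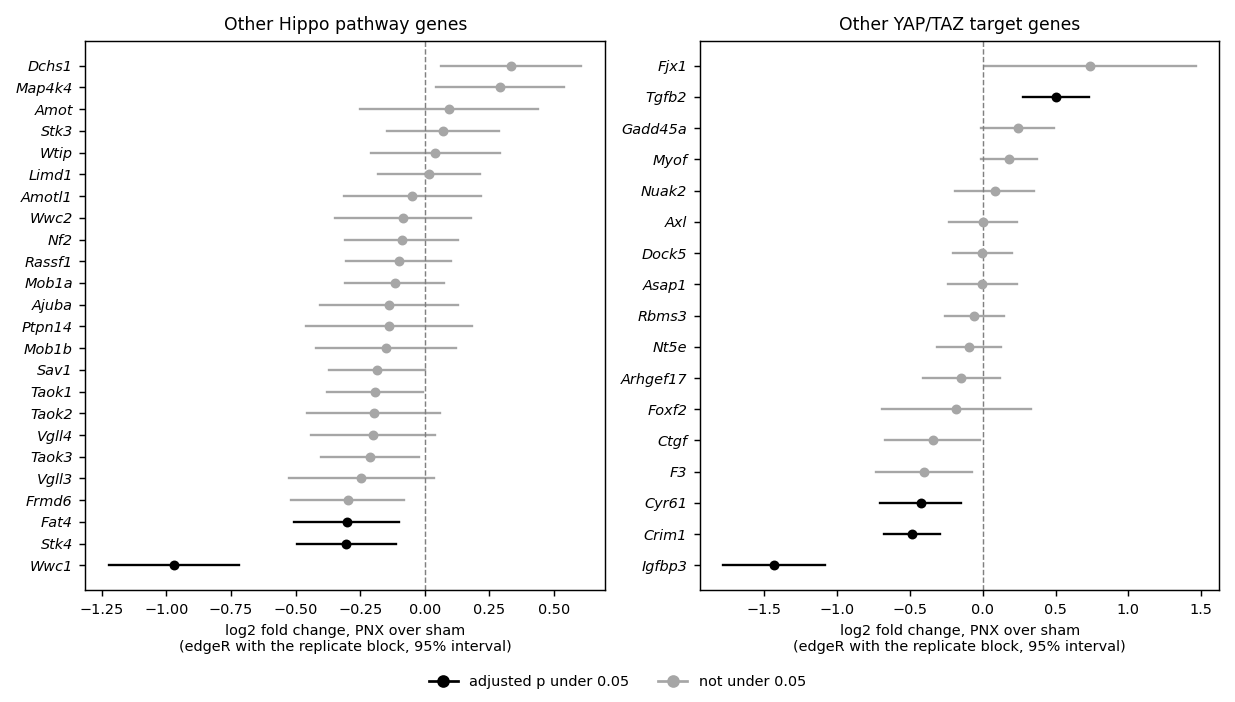
Blocked log2 fold change, PNX over sham, with its 95% interval for 24 other Hippo pathway genes (left) and 17 other YAP and TAZ target genes (right), in black where the edgeR adjusted p is under 0.05. On the left 3 genes are called, all lower, led by Wwc1 at -0.97, and on the right 4 are called, from Igfbp3 at -1.43 to Tgfb2 at 0.50.

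Markers of other cell types moved between the same groups. Besides the sums given above, mesothelial markers summed to 159.6 to 378.9 CPM in sham libraries and 324.6 to 863.1 in PNX libraries, alveolar type 1 markers to 1737 to 4508 and 714.5 to 3320, macrophage markers to 2227 to 3964 and 2818 to 3750, and smooth muscle markers to 228.9 to 257.5 and 180.6 to 293.4. With the replicate block, 5 of 8 mesenchymal markers were called higher and 1 lower, 5 of 6 mesothelial markers higher, 4 of 5 alveolar type 1 markers lower and 1 higher, all 5 alveolar type 2 markers lower, 4 of 5 macrophage markers higher, all 8 cell division genes higher and 1 of 8 endothelial markers lower, at an edgeR adjusted p under 0.05. Of 5 smooth muscle markers none was called by edgeR, and none had an unadjusted p under 0.05 in this fit. The part of these cells in the levels of Amotl2, Tead2, Wwc1 and Igfbp3 was not tested.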

How the data were processed

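RNA of lung ECs was measured in 3 sham and 3 PNX libraries, grouped by their labels. Per the labels and methods, the authors made stranded paired-end mRNA libraries, aligned the reads to mm10 (STAR is named in the submitters' processing notes) and processed them on the Basepair platform. How reads were counted, and on which annotation, is not given in the sources used here. Deposited counts and TPM cover 33068 transcripts of 24063 symbols. TPM entered no test.

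Counts were summed per symbol for the CPM and the fits, so reads shared by transcripts count more than once there. The log2 ratios within a deposit and their counting intervals used the transcript with the highest total instead, scaled by the library sizes of the summed counts. These intervals (Clopper-Pearson, 95%) hold counting error only and leave out any spread between mice. Replicates 1 and 2, which differed by little more than sampling noise over genes with 1 transcript and at least 20 counts, were summed. The tests used edgeR 4.0.16 under R 4.3.3 (quasi-likelihood, TMM, filterByExpr, Benjamini-Hochberg over all genes). DESeq2 1.42.0, other scalings, filters and leaving out libraries were alternatives. A standard error is the log2 fold change over the square root of F. The labels pair the groups by deposit, and the deposit difference correlated between sham and PNX across 10413 genes (Pearson's r = 0.796, Spearman's rho = 0.793). The fits were tested on simulated data. Positions are from GENCODE vM21 (GRCm38). The members and lists were chosen with earlier results of these data known. By rule, the genes named are the members, Cyr61, Ctgf and the 3 highest and 3 lowest of each list. These highest and lowest were taken among genes with a mean of at least 1 CPM. Fat4 and Cd37 were named outside this rule, after values were seen. Of the macrophage list, 5 of 6 genes were found.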

Additional observations from a re-analysis of the deposited data

How the results depend on the processing

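At the stricter thresholds none of the 10 genes was called in any fit, with or without the block. Without the block, Amotl2 had an adjusted p under 0.05 in DESeq2 on the 4 samples (0.0439) and in edgeR on the 6 libraries (0.0118). In the earlier deposit alone all 10 did, but the share of all genes under 0.05 in that fit was not counted. Since that fit took near technical repeats as separate samples, its count says nothing particular about these genes. The log2 fold changes kept their direction except for Wwtr1, which ranged from -0.0322 (without sham replicate 3) to 0.3525 with a library left out, and Tead4, which ranged from -0.3791 to 0.099 (without PNX replicate 3). There the deposits are no longer balanced between the groups. Leaving out replicate 3 of sham or of PNX also moved the unblocked log2 fold change by over 1.5 times in Yap1 (-0.48 and -0.06), Tead1 (-0.41 and -0.08), Lats2 (-0.45 and -0.16), Tead2 (0.11 and 0.65) and Ankrd1 (0.02 and 1.00), none of them called there. The number of genes called by edgeR was 0 without the block, 849 with the replicate block, 920 with the replicate block and 6 libraries, 727 with the block and the top transcript, 624 with the block and the size factors of DESeq2, and 629 with the block and library size alone. It was 409 with 6 libraries and no block, and DESeq2 called 587 without the block and 815 with it. Leaving out 1 library gave 0 to 2 genes called without the block and, with it, 671 and 668 when sham replicate 1 or 2 was left out, and 485 and 863 when PNX replicate 1 or 2 was. The earlier deposit alone, with replicates 1 and 2 as separate samples although they are close to technical repeats, gave 1203. At an adjusted p under 0.05 with no minimum fold change the blocked fit called 3584 genes, 2 of the 10 members, 3 of the Hippo list and 4 of the target list. Of the target list 0 were called without the block by edgeR, 1 by DESeq2, with 6 libraries and in each blocked fit (Igfbp3), while leaving out 1 library gave 0 without the block and 1 with it, and the earlier deposit alone gave 2. Under the block and an adjusted p under 0.05, Tead2 was lost without PNX replicate 1. With the block and the 6 libraries taken separately, 9 of the 10 were under 0.05, in a fit that called 42.1% of all genes. The block of that fit was the replicate number and not the deposit, so it also pairs replicates 1 and 2 of the groups by number. The scalings and left-out libraries combined with the block, and the earlier deposit alone, were chosen after seeing the data. Ankrd1 had only 53 counts in PNX replicate 3. Sequencing depth differs between deposits, and which part of the deposit difference it makes was not tested.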
